A study of Homo sapiens with 8 samples.

Results

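Genes that set the cholesterol balance of the cell were followed in SH-SY5Y, a human neuroblastoma cell line that resembles sympathetic neuroblasts. The set was chosen by name, with earlier results of these data known. It comprised 8 genes: HMGCS1, IDI1, FDFT1 and SQLE of cholesterol synthesis, the regulators INSIG1 and SREBF2, and the export transporter genes ABCA1 and ABCG1. Every probe set that the array annotation assigned to exactly 1 of these genes was taken, which gave 17 of the 22215 probe sets tested and 7 of the 11963 genes measured. FDFT1, which encodes squalene synthase, is not analysed here.

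RNA abundance had been measured on 8 Affymetrix arrays. Clones B and G had been stably transfected with RNAi against DJ-1, the redox-responsive protein encoded by PARK7, and clones H and M with a scramble control. Each clone was measured on 2 arrays, numbered replicate 1 and replicate 2 in the sample titles, so that each condition held 4 arrays from 2 clones. Construct and clonal origin therefore change together, and a condition is only as general as its 2 clones. Whether replicates 1 and 2 were grown as separate cultures is not stated in the labels. The p-values therefore cover only the spread between arrays, part or all of which may be technical. All values are log2 probe-set signals, on which a difference of 1 is a 2-fold difference. Levels of different probe sets also depend on their probes, so they serve below only as a rough guide to bright and dim signals.

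PARK7 signal, which checks the labels, was 10.45 and 10.12 in B, 10.10 and 10.05 in G, 13.11 and 13.14 in H, and 13.11 and 12.95 in M (replicate 1 and 2), and it was lower in the knockdown arrays with a limma adjusted p of 1.67e-06. Of 10 sympathetic neuroblast markers 9 were measured, with a median signal of 13.03 against 8.06 over all probe sets, and a signal of 6.02 for TH. All measured markers of hepatocytes (7), leukocytes (6) and epithelium (8) lay below 8.06, as did 5 of 6 Schwann cell and 6 of 7 steroidogenic cell markers. Array medians ran from 8.03 to 8.08, and upper quartiles from 9.74 to 9.84 in replicate 1 and from 9.69 to 9.73 in replicate 2. The 3' minus 5' difference of ACTB, a gauge of RNA integrity, was 0.24 to 0.46 in the knockdown and 0.10 to 0.30 in the scramble arrays, and 0.10 to 0.46 in replicate 1 and 0.11 to 0.25 in replicate 2. Its part in the results was not tested.

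Cells make cholesterol from acetyl-CoA through mevalonate and squalene. When membrane sterol is low, SCAP carries the precursor of the transcription factor encoded by SREBF2 from the endoplasmic reticulum to the Golgi, where it is cut and released to switch on the synthesis genes. When sterol is plentiful, INSIG1 holds SCAP back, and oxysterols activate the liver X receptors, which switch on the exporters ABCA1 and ABCG1.

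The first comparison asked whether the silencing of DJ-1, a protein linked to recessive Parkinson disease, went with a different level of these genes. None was called: 0 of the 17 probe sets passed in limma at an adjusted p under 0.05, where 2.96% of all probe sets passed. The replicate number was not in this fit, so the standard errors and intervals also hold the spread between the replicate numbers. At an unadjusted p under 0.05 there were 4 of 17 (23.5%), against 4428 of all probe sets (19.9%), so the share of members was near the background. The conditions overlapped in all 17 probe sets, while 11.7% of all probe sets separated them. The differences closest to the threshold belonged to IDI1 and SQLE, both higher in the knockdown arrays. Those of INSIG1 and SREBF2 lay near 0, and the 5 exporter probe sets all had small negative differences.

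**Figure D1:**
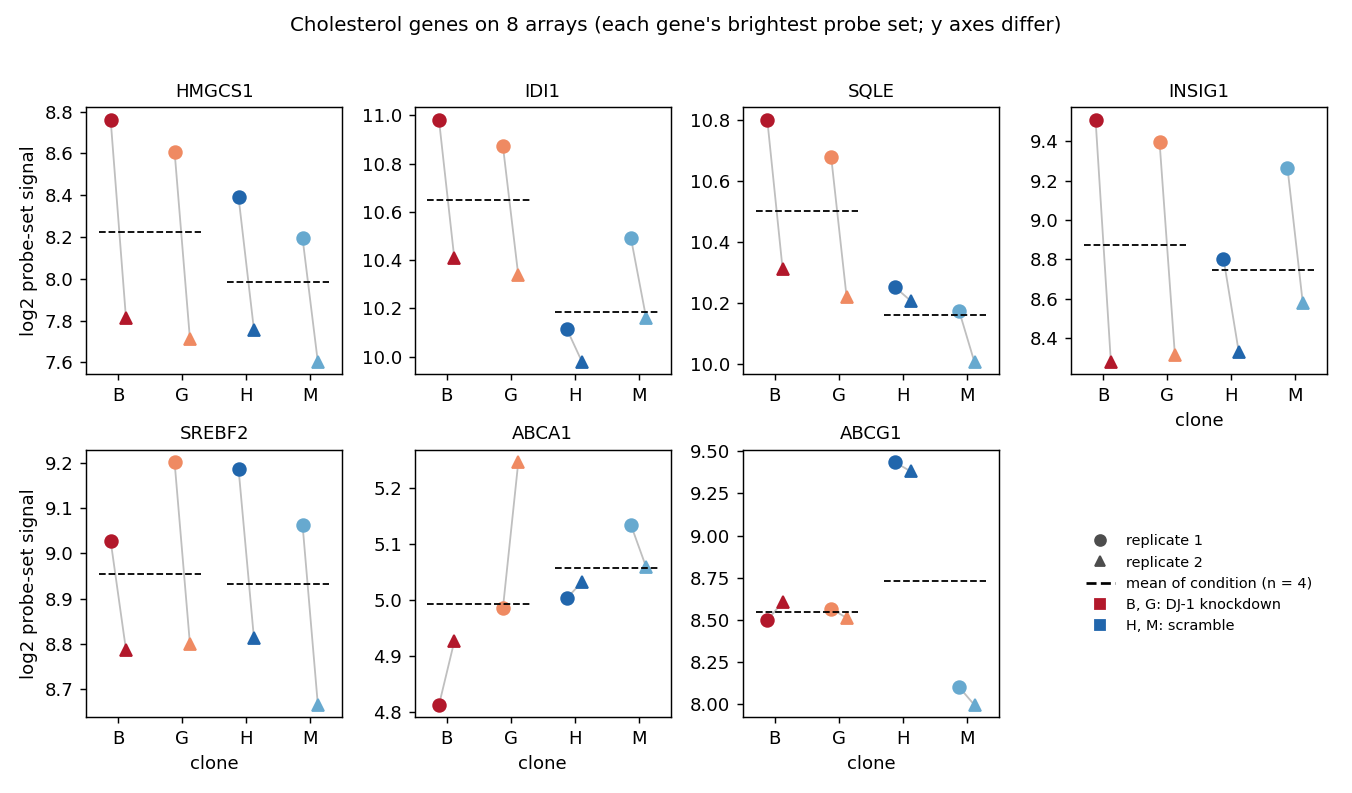
Log2 signal of each gene's brightest probe set on the 8 arrays, by clone, with replicate 1 as circles, replicate 2 as triangles, a grey line joining the duplicates of a clone, and dashed lines at the mean of each condition (n = 4). HMGCS1, INSIG1, SREBF2, IDI1 and SQLE drop from circle to triangle in every clone. IDI1 and SQLE also sit higher in B and G within each replicate number, although the conditions overlap. ABCG1 differs between the scramble clones H (9.43 and 9.38) and M (8.10 and 7.99).

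IDI1 encodes isopentenyl-diphosphate isomerase, which makes the second isoprene building block. On probe set 208881_x_at its replicate 1 signal was 10.91 in B, 10.80 in G, 9.98 in H and 10.36 in M, and its replicate 2 signal was 10.38, 10.24, 9.90 and 9.91. Within each replicate number both knockdown clones lay above both scramble clones, but the replicate 2 arrays of B and G overlapped M of replicate 1. The difference was 0.55 (SE 0.156, 95% interval 0.20 to 0.90), from 10.04 ± 0.22 to 10.59 ± 0.32 (SD, n = 4 arrays each), with limma adjusted p = 0.0989. With the replicate number in the model as a block, the same difference passed (limma adjusted p = 0.0398). It was then the 1 of 17 member probe sets that passed, against 3.35% of all probe sets. With the replicate block and without the clone block both IDI1 probe sets passed, as did 7.06% of all probe sets.

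The other IDI1 probe set, 204615_x_at, gave 10.98, 10.87, 10.11 and 10.49 in B, G, H and M of replicate 1, and 10.41, 10.34, 9.98 and 10.16 in replicate 2. Its order of arrays was close to that of the first, with M of replicate 1 above both knockdown arrays of replicate 2. The difference was 0.46 (SE 0.158), with limma adjusted p = 0.15, and 0.0693 with the replicate block. Both IDI1 probe sets carry the suffix by which the manufacturer marks probes that can bind unrelated transcripts, which was not tested.

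SQLE encodes squalene epoxidase, the first oxygen-requiring step of the pathway. Its brightest probe set, 209218_at, read 10.80 in B, 10.68 in G, 10.25 in H and 10.17 in M of replicate 1, and 10.31, 10.22, 10.21 and 10.01 in replicate 2. Both knockdown clones lay above both scramble clones within each number, by a wide margin in replicate 1 and narrowly in replicate 2. The difference was 0.34 (SE 0.126), with limma adjusted p = 0.178. Probe set 213562_s_at gave 8.09, 7.92, 7.45 and 7.60 in replicate 1 and 7.59, 7.49, 7.26 and 7.39 in replicate 2, a difference of 0.35 (adjusted p = 0.193 in limma). The third, 213577_at, gave 9.74, 9.20, 9.07 and 9.10, then 9.01, 8.96, 8.90 and 9.03, a difference of 0.20 in which B of replicate 1 stands apart. In all, knockdown lay above scramble within both replicate numbers in 4 of the 17 probe sets, those of IDI1 and 2 of SQLE, against 13.7% of all probe sets.

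HMGCS1 encodes the cytosolic HMG-CoA synthase, which acts early in the pathway, before mevalonate. On 221750_at it read 8.76 in B, 8.61 in G, 8.39 in H and 8.20 in M of replicate 1, and 7.81, 7.71, 7.76 and 7.60 in replicate 2. The 4 replicate 1 arrays formed a high group and the 4 replicate 2 arrays a low group, whatever the construct. The knockdown difference was 0.24 (SE 0.253, 95% interval -0.33 to 0.81), with limma adjusted p = 0.634. With the replicate block the SE was 0.112 and the limma adjusted p was 0.277. The dimmer probe set 205822_s_at gave 7.74, 7.52, 7.48 and 6.98, then 7.29, 7.11, 7.22 and 7.27, with no such grouping and a knockdown difference of 0.17 (limma adjusted p = 0.536).

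INSIG1, which encodes the sterol-dependent anchor of SCAP and is itself a target of the pathway, read 9.51 in B, 9.40 in G, 8.80 in H and 9.27 in M of replicate 1 on 201626_at. In replicate 2 the same probe set read 8.28, 8.32, 8.33 and 8.58. The 4 replicate 2 values lay below every replicate 1 value, and the knockdown clones lay above both scramble clones in replicate 1 and below both in replicate 2. The knockdown difference was 0.13 (95% interval -0.54 to 0.81), and on the other probe sets 0.07 and -0.05, with limma adjusted p between 0.839 and 0.935. On 201626_at the SE was 0.299, and 0.169 with the replicate block (limma adjusted p = 0.711). Probe set 201627_s_at gave 8.90, 8.89, 8.49 and 8.96, then 7.84, 7.88, 7.60 and 8.18. Probe set 201625_s_at gave 8.46, 8.49, 8.05 and 8.39, then 7.48, 7.32, 7.48 and 8.05. On each of the 3, every clone was lower in replicate 2.

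SREBF2, the gene of the transcription factor itself, read 9.03, 9.20, 9.19 and 9.06 in B, G, H and M of replicate 1 on 201248_s_at, and 8.79, 8.80, 8.81 and 8.67 in replicate 2. The replicate numbers separated cleanly and the conditions did not, with a knockdown difference of 0.02 (95% interval -0.27 to 0.32). The SE of that difference was 0.132, and 0.0847 with the replicate block. On 201247_at the signals were 8.71, 8.82, 8.77 and 8.32, then 8.33, 8.27, 8.43 and 8.01, with a knockdown difference of 0.15 and M the lowest clone in both numbers.

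ABCA1, which loads cholesterol onto apolipoprotein particles, was dim. Its 3 probe sets averaged 4.27, 4.94 and 5.03, at the 3.68, 8.80 and 9.53 percentiles of all probe-set means, and without detection calls such signals cannot be told from background. On 203504_s_at it read 4.81, 4.99, 5.00 and 5.13 in B, G, H and M of replicate 1 and 4.93, 5.25, 5.03 and 5.06 in replicate 2. The knockdown differences were -0.06, -0.06 and -0.11, the last with a 95% interval of -0.25 to 0.04.

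ABCG1, which passes cholesterol to mature high-density lipoprotein, split the scramble clones rather than the conditions. On 204567_s_at it read 8.50 in B, 8.57 in G, 9.43 in H and 8.10 in M of replicate 1, and 8.61, 8.51, 9.38 and 7.99 in replicate 2. Duplicates of a clone differed by 0.05 to 0.11, H was the highest clone, M the lowest, and B and G lay between them. The knockdown difference of -0.18 (SE 0.322, 95% interval -0.91 to 0.54) therefore averaged opposite differences: without clone H it was 0.50 and without clone M it was -0.86. Both passed in limma, but in those fits the scramble arm is 1 clone, the clone correlation was estimated at -0.585 and -0.543, and 39.1% and 9.53% of all probe sets passed.

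The clones were then compared in pairs, to set differences between clones of 1 condition beside those between conditions. Between the scramble clones, 1 of 17 member probe sets passed, against 1.05% of all probe sets: ABCG1 204567_s_at was higher in H than in M by 1.36 (SE 0.113), 2.57-fold, with limma adjusted p = 0.00426. The other ABCG1 probe set, 211113_s_at, read 7.62 and 7.69 in H and 7.22 and 7.11 in M, a difference of 0.49 with limma adjusted p = 0.141. In the knockdown clones it read 7.12 and 7.32 in B and 7.34 and 7.39 in G.

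ABCG1 204567_s_at differed by -0.86 in B against H, 0.50 in B against M, -0.87 in G against H and 0.49 in G against M, with limma adjusted p of 0.0507, 0.0529, 0.075 and 0.064, so that only H and M were told apart in that order. B and G differed by 0.01. In limma 0 members passed in these pairs, where 0.171%, 4.5%, 0.0855% and 3.55% of all probe sets passed, with 5, 1, 3 and 1 members at an unadjusted p under 0.05, beside 1696, 4987, 1255 and 4312 of the 22215 probe sets. Between B and G 0 members passed, with 0 at an unadjusted p under 0.05, where 0.0045% of all probe sets passed. Clone within condition accounted for 95.8% of the sum of squares of this probe set over the 8 arrays. It accounted for 82.0% of that of 211113_s_at, against a median of 21.7% over all probe sets.

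Among marker genes, 1 of 9 sympathetic neuroblast and 1 of 10 mesenchymal markers passed between H and M in limma, where 1.05% of all probe sets passed. DBH, of noradrenaline synthesis, was higher in H by 0.70 (limma adjusted p = 0.02), and YAP1, of the mesenchymal neuroblastoma list, was lower by 1.63 (limma adjusted p = 0.0016). All 10 mesenchymal markers were measured, 7 of them below the median level and 0 listed at 0. Their summed linear signal was 19081 and 12004 in H, 25912 and 23421 in M, and 11108 to 15162 in the knockdown arrays. Their part in the ABCG1 difference was not tested.

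The second comparison set the replicate 2 arrays against the replicate 1 arrays of the same clones. In limma 9 of the 17 member probe sets passed as lower in replicate 2 and 0 as higher. The 9 were probe sets of HMGCS1, IDI1, SQLE, INSIG1 and SREBF2, several from the same gene. Over all probe sets 8.76% passed as lower and 4.6% as higher. At or above the median level 14.2% passed as lower. Because the members were chosen with earlier results of these data known, this contrast describes them and does not test the pathway. INSIG1 had the widest drop, HMGCS1 followed, and IDI1, SREBF2 and 1 probe set of SQLE dropped by less, while 0 of the 5 exporter probe sets passed, ABCA1 at signals too dim to show a fall. Replicate 2 was lower in all 4 clones for 11 of the 17, against 18.3% of all probe sets, and without any overlap of the numbers for 6 of the 17, against 6.37%. The median member difference was -0.33, beside 0.03 over all probe sets and -0.03 over those at or above the median level. The labels do not say what the replicate number stands for.

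Other genes moved with the replicate number as well. Of the 10 mesenchymal neuroblastoma markers 4 passed as lower in replicate 2 in limma, SNAI2 (-1.94, adjusted p = 0.0010), FN1 (-0.79, 0.0464), VIM (-0.43, 0.0222) and TWIST1 (-0.34, 0.0305), with 0 higher. Over all genes 10.1% passed as lower and 4.56% as higher. The other 6 markers had a positive difference, and the median of the list was 0.02, so the list did not fall as a whole. The summed signal of the list went from 15162 to 11108 in B, 13410 to 11238 in G, 19081 to 12004 in H and 25912 to 23421 in M, lower in replicate 2 of every clone. That sum weighs bright markers most, and the marker means had a median of 6.98 and a highest value of 12.86. The ACTB gauge and the markers stand beside the member differences, and their part in them was not tested.

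INSIG1 fell by 0.93 (SE 0.0777), 1.91-fold, on 201627_s_at (limma adjusted p = 0.00131), and by 0.87 and 0.77 on its other probe sets (limma adjusted p = 0.00576 and 0.0108). Clone by clone, the difference on 201626_at was -1.23 in B, -1.08 in G, -0.48 in H and -0.69 in M. HMGCS1 fell by 0.77 (SE 0.0874), 1.70-fold, on 221750_at, with limma adjusted p = 0.00304, and by clone the difference was -0.95, -0.90, -0.63 and -0.59. On both probe sets the knockdown clones B and G had the wider drops. The dimmer HMGCS1 probe set 205822_s_at differed by -0.21 (limma adjusted p = 0.285), lower in B, G and H and higher in M.

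IDI1 fell by 0.40 on each probe set (limma adjusted p = 0.0187 and 0.0213), with differences on 204615_x_at of -0.57 in B, -0.53 in G, -0.14 in H and -0.33 in M. SQLE fell by 0.33 on 213562_s_at (limma adjusted p = 0.0387), while 209218_at and 213577_at differed by -0.29 and -0.30 (limma adjusted p = 0.0613 and 0.106). H changed least on 209218_at, by -0.04, and B most, by -0.49. SREBF2 fell by 0.40 and 0.35 (limma adjusted p = 0.0136 and 0.0146), and its drop on 201248_s_at was of like size in the 4 clones, -0.24, -0.40, -0.37 and -0.40. ABCA1 differed by 0.08, 0.13 and 0.03 and ABCG1 by -0.03 and 0.05, none of which passed.

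The calls moved with the clones included. Without clone B 4 of the 9 kept their call (limma adjusted p under 0.05), namely HMGCS1 221750_at, SREBF2 201248_s_at and 2 probe sets of INSIG1, and without clone G 4 did, HMGCS1 221750_at and all 3 of INSIG1. Without clone H 8 did, SQLE 213562_s_at being lost, and without clone M all 9 did. Fewer probe sets passed overall in the first 3 of these fits, 767, 984 and 1923 against 2966.

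**Figure D2:**
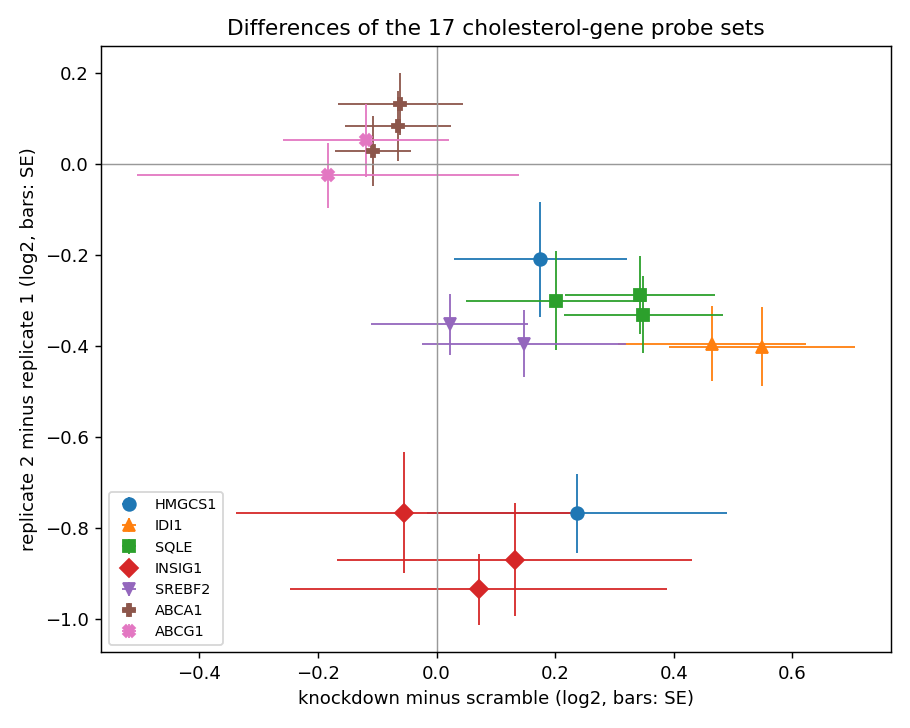
Each of the 17 member probe sets by its knockdown minus scramble difference (horizontal, log2) and its replicate 2 minus replicate 1 difference (vertical, log2), with bars of 1 SE. INSIG1 and HMGCS1 221750_at lie lowest, at -0.77 to -0.93, IDI1 lies below 0 and farthest to the right, at 0.46 and 0.55, and the exporters ABCA1 and ABCG1 stay near 0 on the vertical axis.

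The share of variation differed between members and between probe sets of a gene. Replicate number accounted for 85.0% of the sum of squares of HMGCS1 221750_at, for 73.3% to 84.9% of the 3 INSIG1 probe sets and for 87.2% of SREBF2 201248_s_at, but for 21.4% of HMGCS1 205822_s_at, against a median of 18.6% over all probe sets. Condition accounted for 57.2% of IDI1 208881_x_at and 46.6% of SQLE 209218_at, but for 16.8% of SQLE 213577_at, against a median of 17.7%. It accounted for 0.37% to 1.87% of the 3 INSIG1 probe sets. Over the 17 member probe sets the median was 8.10% for condition, below that of all probe sets, and 35.0% for replicate number.

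The knockdown difference was also compared between the numbers. In replicate 1 alone it was 0.69 for IDI1 208881_x_at, 0.53 for SQLE 209218_at, 0.39 for HMGCS1 221750_at and 0.42 for INSIG1 201626_at. In replicate 2 alone the same differences were 0.41, 0.16, 0.08 and -0.16. The change in the difference was negative in all 10 probe sets of the synthesis genes and INSIG1, as it was in 48.8% of all probe sets and 59.2% of those at or above the median level. The test of that change passed for 0 of the 17, as for 0% of all probe sets in limma, with 4 of the 17 and 1869 of all at an unadjusted p under 0.05. INSIG1 201626_at had the smallest unadjusted p, 0.00573, for a change of -0.58 (SE 0.14), and a limma adjusted p of 0.573. A different response of the knockdown clones in the 2 numbers was therefore not shown for any member.

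The wider pathway was read from 8 gene lists with 118 genes, of which 95 were measured, each by its brightest probe set. These lists, too, were chosen with earlier results of these data known. The lists held 15 falls in replicate 2 and 0 rises in limma, members included. Without the members 11 of 88 genes fell, against 10.1% of all genes. Of the 17 measured sterol synthesis enzymes 7 fell in replicate 2 and 0 rose, against 10.1% and 4.56% of all genes, and 15 of the 17 had a negative difference. The median over the list was -0.25, beside 0.02 over all genes, of which 46% had a negative difference. Without the members 5 of 14 enzymes fell, with a list median of -0.22. Beside HMGCS1 and IDI1 they were ACAT2 (-0.63), the acetoacetyl-CoA thiolase that opens the pathway, FDPS (-0.51), which makes farnesyl diphosphate, MSMO1 (-0.49), an oxidase that strips methyl groups from sterol intermediates, LBR (-0.44), a nuclear membrane protein with sterol reductase activity, and DHCR7 (-0.33), the last reductase. Their limma adjusted p lay between 0.0035 and 0.038.

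ACAT2 read 10.82, 10.79, 10.24 and 10.49 in B, G, H and M of replicate 1 and 10.15, 10.05, 9.86 and 9.76 in replicate 2. FDPS read 11.60, 11.59, 11.12 and 11.29, then 11.07, 11.07, 10.86 and 10.57. For both genes, as for MSMO1, DHCR7 and HMGCS1, every replicate 2 array lay below every replicate 1 array, which 7.18% of all genes showed. The other 10 enzymes did not pass.

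**Figure D3:**
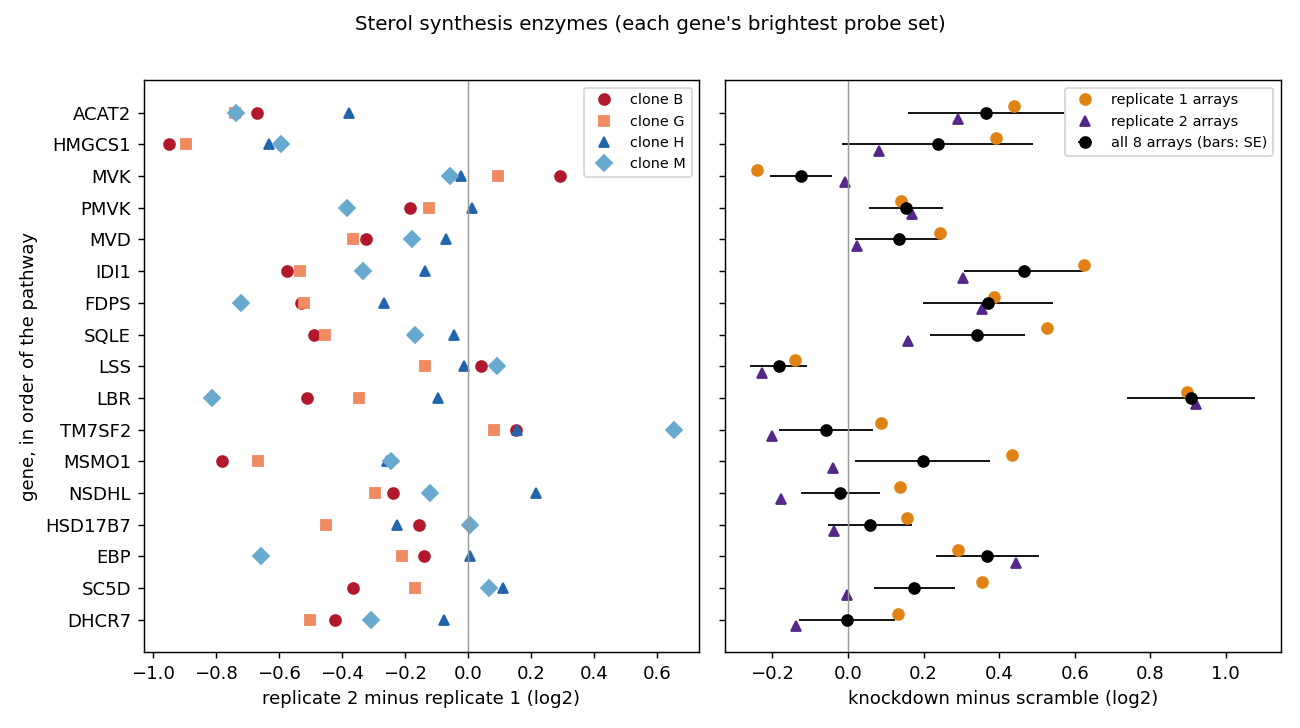
The 17 measured sterol synthesis enzymes in pathway order. The left panel shows replicate 2 minus replicate 1 (log2) in each clone, and the right panel shows knockdown minus scramble (log2) in all 8 arrays with bars of 1 SE and within each replicate number. Most enzymes lie left of 0 in the left panel, ACAT2 and HMGCS1 in every clone, and LBR alone lies far right of 0 in the right panel, at 0.91.

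Outside the synthesis list, falls in replicate 2 numbered 3 of 13 regulators, 1 of 12 isoprenoid and 1 of 7 uptake genes. They also numbered 1 of 13 transport and 2 of 11 fatty acid synthesis genes. Over all genes 10.1% passed as lower. Without the members 1 of 11 regulators fell, with a list median of 0.01. Of the 11 fatty acid synthesis genes 9 had a negative difference, against 46% of all genes. Among regulators SREBF2 and INSIG1 were joined by TMEM97 (-0.33, limma adjusted p = 0.040), a sterol-regulated endoplasmic reticulum protein gene. SCAP and INSIG2 differed by 0.01 and -0.04, and SREBF1 by 0.17. COQ2 of ubiquinone synthesis (-0.73), the sterol transfer gene GRAMD1C (-0.88) and the sorting receptor gene SORL1 (-0.24) fell, as did the fatty acid genes ELOVL6 (-0.40) and ACSL1 (-0.24), with limma adjusted p from 0.0013 to 0.047. Of 13 measured genes of sterol export and the liver X receptors 0 passed in limma, with 0 at an unadjusted p under 0.05, and of 10 of sterol storage and breakdown 0 passed, with 2. Over all genes 3970 of 11963 had an unadjusted p under 0.05. NR1H3, which encodes liver X receptor alpha, differed by 0.04, and APOE by 0.11.

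In the knockdown comparison the lists held 7 calls among the 95 genes, 2 higher and 5 lower, none of them a member, where 3.14% of all genes passed in limma. Of the 95, 20 separated the conditions without overlap, against 12.2% of all genes. By list, 3 calls lay in uptake, 2 in transport, 1 in regulation and 1 in synthesis, and MYLIP counted for uptake and for export. Cell identity markers stood beside these calls: all 9 sympathetic neuroblast markers had a positive difference (median 0.17) and 9 of 10 mesenchymal markers a negative one (median -0.11), with 0 passing in either list. The negative sign was not particular to the mesenchymal list. It was also found in 6 of 7 hepatocyte, 7 of 8 epithelium, 5 of 6 leukocyte, 5 of 6 Schwann cell and 4 of 7 steroidogenic cell markers. Over all probe sets 49.3% had a negative difference, and 38.3% of those at or above the median level. The part of the markers in the calls was not tested.

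LBR was higher in the knockdown by 0.91 (SE 0.170), at 11.95 and 11.44 in B, 11.74 and 11.39 in G, 10.83 and 10.74 in H, and 11.07 and 10.25 in M, with limma adjusted p = 0.0268. VLDLR, a lipoprotein receptor gene, was higher by 1.02 (limma adjusted p = 0.0459, and 0.0534 with the replicate block, which ends the call). Its signal was 9.80 and 9.96 in B, 9.62 and 9.87 in G, 9.12 and 9.34 in H, and 8.48 and 8.22 in M, so that M stood lowest and the difference was 1.46 without H and 0.58 without M.

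SREBF1, which encodes the factor that favours fatty acid genes, fell by 0.66 (SE 0.0911), with limma adjusted p = 0.0086. It read 9.02 and 9.13 in B, 9.11 and 9.14 in G, 9.66 and 9.84 in H, and 9.58 and 9.97 in M, the knockdown arrays lying closely together. The lysosomal cholesterol carrier gene NPC2 fell by 1.11 (limma adjusted p = 0.0184), from 10.96 ± 0.41 to 9.85 ± 0.17 (SD, n = 4 each). MYLIP, a ligase that degrades lipoprotein receptors and a liver X receptor target, fell by 0.60 (limma adjusted p = 0.0179).

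SORL1 fell by 0.50 (limma adjusted p = 0.037), and its other probe set differed by -0.63 (limma adjusted p = 0.0879, and 0.0454 with the replicate block). The oxysterol-binding protein gene OSBP fell by 0.38 (limma adjusted p = 0.0296), with -0.22 on its other probe set (limma adjusted p = 0.197). SCAP, INSIG2 and NR1H3 differed by 0.14, 0.10 and 0.02. Of 10 storage and 11 fatty acid synthesis genes 0 passed in limma, with 1 and 2 at an unadjusted p under 0.05, beside 2509 of all 11963 genes. The smallest p there belonged to SOAT1, of cholesterol esterification (-0.60, limma adjusted p = 0.0907), SOAT2 (-0.17, 0.326), ACLY, of cytosolic acetyl-CoA supply (-0.36, 0.07), and LPIN1 (0.41, 0.0814).

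The 7 calls were lost in several fits while the differences kept their sign. Without clone B or G, LBR differed by 0.84 and 0.97, SREBF1 by -0.64 and -0.69 and NPC2 by -1.16 and -1.07, and the calls over all probe sets went from 657 to 13 and 22. Without clone H or M, NPC2 differed by -1.45 and -0.77 and VLDLR by 1.46 and 0.58. The size of these differences thus depended on which scramble clone was kept. In limma 0 of the 7 passed with clone means in place of arrays, without clone B, without clone G, without array B2, or within either replicate number alone. VLDLR also lost its call without the clone block (limma adjusted p = 0.0548) and after quantile normalization again (0.0545), and SORL1 without the clone block (0.0508). Without B1, G1 or G2 the count was 3, 1 or 2, without M1 5 and without M2 6, and all 7 passed without H1, H2, clone H or clone M. Member calls, 0 in the main fit, appeared with the replicate block (1, or 2 without the clone block) and when some scramble arrays were left out. Without clone H 4 of the 17 member probe sets passed, where 39.1% of all probe sets did, and without clone M 4 passed, where 9.53% did. Without array H2 or M1, 1 passed, IDI1 208881_x_at, where 16.9% and 2.57% did.

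**Figure D4:**
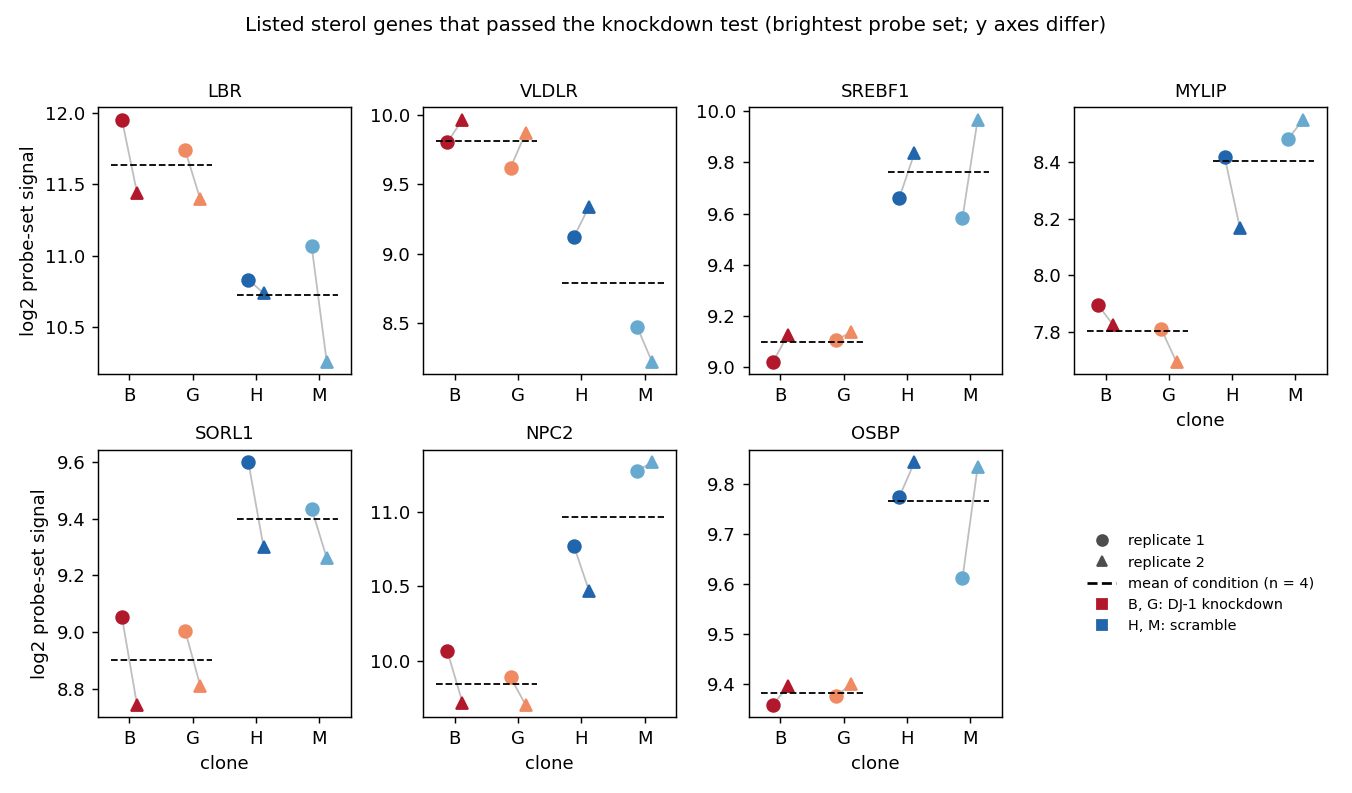
Log2 signal of the 7 listed genes that passed the knockdown test, by clone, with replicate 1 as circles, replicate 2 as triangles and dashed lines at the mean of each condition (n = 4). LBR and VLDLR sit higher in B and G, the other 5 sit lower there, and the knockdown arrays of SREBF1 (9.02 to 9.14) and OSBP (9.36 to 9.40) lie closest together.

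Genes whose pattern over the 8 arrays was most like that of a member were sought among probe sets at or above the median level. The 8 arrays are 4 clones in duplicate, so the points share clones, and r is a description only. HMGCS1 was most like PIAS1 (r = 0.989), PRKDC (0.987) and NDUFB8 (0.986). SQLE was most like ABCE1 (0.996), LSM7 (0.992) and CBX3 (0.987), and IDI1 was most like GPALPP1 (0.981), PRPF4 (0.977) and CDK14 (0.976).

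INSIG1 was most like ZMYND8 (r = 0.989), PLIN2 (0.984) and CTSV (0.977). PLIN2, a lipid droplet coat protein gene, read 10.80, 10.70, 10.56 and 10.68 in replicate 1 and 10.27, 10.31, 10.30 and 10.34 in replicate 2. SREBF2 was most like HSP90AA1 (0.984), RSRC2 (0.977) and HUWE1 (0.973). The exporters had other partners: ABCG1 was most like NALF1 (0.983), SEZ6L (0.982) and DRG2 (0.975), and ABCA1, at its low signal, reached 0.877 with DCAF8, 0.864 with CLTA and 0.863 with DLGAP4.

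The mean of HMGCS1, IDI1, SQLE and INSIG1 was most like TXNIP (r = 0.992), the thioredoxin-interacting protein gene. TXNIP read 12.14, 11.70, 9.61 and 10.60 in B, G, H and M of replicate 1 and 8.85, 8.84, 8.23 and 8.09 in replicate 2, so it fell by 2.51 (limma adjusted p = 0.00268). B and G were highest and H lowest within replicate 1, the order also seen on INSIG1 201626_at, while M was highest on INSIG1 201627_s_at. MTF2, PSMA4, SNRNP35, MSMO1, SNRPG, PLEKHO1 and PIN4 followed, with r from 0.990 to 0.981.

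The promoters of members that fell together, and that of the dim exporter gene ABCA1, are shown for the motifs they hold. RefSeq promoters (GRCh38.p14) were at hand for 5 of the 8 genes, and the 250 bases upstream of each start were searched on both strands. Capitals mark CACNCCAC, the core of a sterol regulatory element, which 4.87% of 35116 promoters hold, CCAAT (32%), the E-box CACGTG (6.34%) and GGTNANNNNNGGTCA, a loose liver X receptor element (0.216%). GGGCGG, the Sp1 box (42.6%), was also searched and is left in lower case. The motifs were scored separately, and overlapping matches were each counted.
HMGCS1, chr5:43313496-43313579, minus strand, 167 to 84 bases upstream: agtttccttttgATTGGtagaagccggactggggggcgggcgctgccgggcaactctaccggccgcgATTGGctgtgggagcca
INSIG1, chr7:155297658-155297840, plus strand, 220 to 38 bases upstream: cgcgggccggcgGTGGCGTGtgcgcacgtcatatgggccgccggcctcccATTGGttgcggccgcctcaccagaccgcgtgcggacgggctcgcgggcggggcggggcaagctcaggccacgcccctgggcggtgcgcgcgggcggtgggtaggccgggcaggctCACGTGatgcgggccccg
SREBF2, chr22:41832961-41833015, plus strand, 144 to 90 bases upstream: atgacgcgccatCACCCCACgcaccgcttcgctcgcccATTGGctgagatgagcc
ABCA1, chr9:104928198-104928395, minus strand, 240 to 43 bases upstream: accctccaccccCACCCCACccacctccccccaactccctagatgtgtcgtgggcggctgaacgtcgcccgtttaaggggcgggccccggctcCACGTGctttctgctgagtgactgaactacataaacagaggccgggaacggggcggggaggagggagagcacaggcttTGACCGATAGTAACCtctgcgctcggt

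INSIG1 and SREBF2, which fell in replicate 2, each hold the sterol element core followed downstream by a CCAAT box. HMGCS1, which also fell, holds 2 CCAAT boxes and no core in this window, which says only that these letters are absent there. IDI1 holds the core at 1 of its 3 annotated starts, 115 to 108 bases upstream. ABCA1, whose signal was too dim to show a fall, holds the core and the liver X receptor element. A match is a description of the letters and not of binding, and the arrays do not measure which start was used.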

How the data were processed

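The authors' deposited values were log2 probe-set signals of 8 arrays. They were made with GCOS and RMA, per the submitters' processing notes; tool versions are not given in the sources used here. That the scale is log2 scale was read from the values themselves. RMA brings the arrays close to 1 distribution, which can remove much of a shift shared by most genes. In the deposited values the upper quartiles were still lower in every replicate 2 array than in any replicate 1 array. After quantile normalization again, 9 member probe sets were called between the numbers. No detection calls were used.

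Of 22277 probe sets, 62 manufacturer controls were left out. The array annotation gave 19064 of the other 22215 exactly 1 gene, and 19052 of these matched RefSeq symbols. A gene with several probe sets was represented in lists by the brightest. The members and lists were chosen with earlier results of these data known. Genes were named if they were members, if their list's brightest probe set passed (at most 6 a list and comparison, or the 2 smallest p where none passed), or if they were most like a member across the arrays.

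Tests used limma 3.58.1 (R 4.3.3; lmFit, eBayes with a trend), two-sided, with Benjamini-Hochberg adjustment over 22215 probe sets and a threshold of 0.05. Knockdown against scramble had clone as a random block (duplicateCorrelation, statmod 1.5.0, correlation -0.068, and 0.235 with the replicate number as a block). Replicate numbers were compared with clone as a fixed term, the knockdown difference between numbers by an interaction term, and clones in a fit with 1 mean per clone. The scripts were tested on simulated data without clone differences, where 9.13% of the knockdown calls and 3.57% of the replicate calls were false. The deviations of same-numbered arrays correlated across probe sets at 0.42 to 0.78 in the 6 pairs of clones, so the numbers of the titles pair the arrays, and the replicate number was added to the knockdown fit as a block in 1 alternative. Other alternatives were quantile normalization again, a filter at the median level, no trend, no clone block, clone means, each replicate number alone, and leaving out each array or clone. Precision is limited by there being 8 arrays.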

Additional observations from a re-analysis of the deposited data

Results flagged for a closer look

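ABCA1 on 216066_at stood out within the scramble arrays. Its signal was 4.88 in H of replicate 2, below 5.04 in H of replicate 1 and 5.02 and 5.03 in M, a gap wide for the range of 4 arrays. Chance puts about 1 in 20 such groups past that limit. All 17 member probe sets were screened in each condition, and this was the only group flagged. The 4 arrays are duplicates of clones H and M, which the limit does not take into account. The probe set is dim, at the 8.80 percentile of all probe-set means.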

How the results depend on the processing

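In the knockdown comparison the number of probe sets called by limma was 657 and stayed within 1.5 times of that with the replicate block, without the clone block, after quantile normalization again, with the filter at the median level and without the trend. It was 1568 with the replicate block and no clone block, 1 with clone means, 18 within replicate 1 and 1 within replicate 2. Leaving out arrays or clones gave 13 to 8685: 225, 69, 212 and 207 without B1, B2, G1 and G2, 1544 and 3751 without H1 and H2, 13 and 22 without clones B and G, and 8685 and 2117 without H and M. Member probe sets called went from 0 to between 0 and 4 on leaving out arrays or clones, and to 1 with the replicate block, 2 with it and no clone block. With the replicate block VLDLR lost its call, and IDI1 208881_x_at and the second SORL1 probe set gained one.

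Differences near 0 changed sign. SREBF2 201248_s_at in the knockdown was -0.0033 after quantile normalization and -0.010 within replicate 1, INSIG1 201626_at was -0.16 and ABCA1 203504_s_at 0.040 within replicate 2, and ABCG1 204567_s_at between the numbers was 0.00044 after quantile normalization. Leaving out arrays or clones gave knockdown differences of -0.071 to 0.35 for INSIG1 201626_at, -0.064 to 0.10 for SREBF2 201248_s_at, -0.19 to 0.058 for ABCA1 203504_s_at and -0.86 to 0.50 for ABCG1 204567_s_at, and a replicate difference of -0.071 to 0.0010 for that ABCG1 probe set.

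Between the replicate numbers, 765 to 3636 probe sets were called on leaving out arrays or clones, and 4 to 12 members. In that fit, leaving out 1 array of a clone leaves the other without a partner. Between clones, the filter at the median level called 0 probe sets for B against G, 30 for H against M, 15 for B against H, 658 for B against M, 2 for G against H and 474 for G against M, with fewer probe sets tested. It called 1 member in B against M and in G against M, and the fit without the trend called 1 member in B against H, B against M and G against M. The other causes were not tested. Dim probe sets, such as those of ABCA1, have no measured lower limit here.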
